A study of Mus musculus with 17 samples.

Results

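Sequencing run r770 held 6 RNA-seq libraries of mouse hepatocytes, chosen by the run number in their labels, out of 17 libraries in the series. In 3 of them the liver had been edited at the WRE, the labels' name for a site bound by β-catenin that lies upstream of DLK1/DIO3 (condition DLK1DWRE), and in the other 3 at Rosa26, a locus widely used as a neutral control for editing (condition ROSA26). All 6 came from C57BL/6J mice, aged 3 months, of the ApcDHep genotype. AAV8, a viral vector that reaches the liver, had delivered SaCas9 constructs 1 month earlier, and tamoxifen had been given (2 mg, 7 days). So the Rosa26-edited controls carried the same Apc genotype, vector, nuclease and drug as the WRE-edited libraries, and no unedited or Apc-intact liver was compared here. The hepatocytes were released by collagenase perfusion and their RNA extracted with Trizol. The labels name neither the driver of the Apc deletion nor the share of alleles edited, and they do not say whether each library came from a separate mouse, so the p-values below measure the spread between libraries.

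APC is the scaffold of the complex that marks β-catenin for destruction, and without it β-catenin enters the nucleus and activates genes together with TCF factors. In the liver this programme sets the identity of hepatocytes around the central vein, and its unchecked form drives hepatocyte growth. The DLK1/DIO3 locus is an imprinted domain: the paternal chromosome expresses the protein-coding genes Dlk1, Rtl1 and Dio3, and the maternal chromosome expresses the long non-coding RNAs Meg3, Rian and Mirg, which also host snoRNAs and microRNAs. The comparison asked which transcripts differ when the site upstream of this domain is edited in Apc-deficient hepatocytes.

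The 6 libraries held 27319995 to 38935135 expected counts each, and 14583 genes passed the filter on low counts. No single gene passed the test on this run alone: edgeR's quasi-likelihood test called 0 genes higher and 0 lower after adjustment, and the smallest adjusted p was 0.171. At an unadjusted p under 0.05 the same fit had 199 genes higher (1.36% of those tested) and 250 lower (1.71%), 3.08% in all. DESeq2 called 3 genes higher (0.0114%) and 9 lower (0.0342%) of the 26282 genes to which it gave an adjusted p. The verbs below therefore give levels: values are CPM (counts relative to the library size, scaled with TMM factors), listed in the order of replicates 1, 2 and 3, and log2 fold changes are WRE-edited minus Rosa26-edited with their standard errors. The median log2 fold change over all tested genes was 0.014, with 47.9% of them negative and 52.1% positive. The 2 libraries farthest from the rest in a principal component analysis were Rosa26-edited 2, alone at the end of the first component, and WRE-edited 3, alone at the end of the second. In bulk RNA, fewer cells of a type and less RNA per cell cannot be told apart.

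The long RNAs of the DLK1/DIO3 locus were at lower levels in the WRE-edited libraries than in the controls. Rian, a maternally expressed non-coding RNA that hosts snoRNAs, stood at 73.7, 46.5 and 52.7 CPM in the WRE-edited libraries and at 380.8, 240.7 and 207.7 CPM in the Rosa26-edited ones. The groups did not overlap, and Rian had the smallest p of all genes (log2 fold change -2.26 ± 0.27, 4.80-fold lower, edgeR adjusted p = 0.171, DESeq2 adjusted p = 2.56e-13). Meg3, the non-coding RNA whose promoter lies at the start of the maternal transcripts, was nearly level in the WRE-edited libraries at 42.1, 40.8 and 40.9 CPM. In the Rosa26-edited libraries Meg3 spread from 74.8 CPM in replicate 2 to 259.7 CPM in replicate 1, with 174.2 CPM in replicate 3. Every WRE-edited library was below every control (log2 fold change -2.04 ± 0.38, edgeR adjusted p = 0.998, DESeq2 adjusted p = 5.68e-06). On the deposited per-length scale, the mean level of Rian was 34.1 TPM in WRE-edited and 169.4 TPM in Rosa26-edited libraries, and that of Meg3 was 15.9 and 63.2 TPM.

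Rtl1, a retrotransposon-derived coding gene expressed from the paternal chromosome, was at 2.75, 1.82 and 3.88 CPM against 23.0, 5.63 and 9.16 CPM, again without overlap (log2 fold change -2.17 ± 0.52, DESeq2 adjusted p = 0.00352). Mirg, the host transcript of the microRNA cluster farther downstream, was at 11.02, 2.35 and 5.34 CPM against 44.9, 15.7 and 19.9 CPM (log2 fold change -2.11 ± 0.63, DESeq2 adjusted p = 0.999). The WRE-edited values of Mirg were all below those of the controls, but they varied more among themselves than those of Rian or Meg3. B830012L14Rik, a non-coding transcript of the domain, reached 0.585, 0.193 and 0.232 CPM against 2.80, 0.343 and 0.839 CPM, and its groups overlapped. Gm34667, a predicted gene at the distal side of the domain, lay the other way at 0.482, 1.05 and 0.564 CPM against 0.392, 0.229 and 0.268 CPM (log2 fold change 1.23 ± 0.52), with every WRE-edited library above every control. Both of these transcripts were near the bottom of the measurable range.

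The other 3 of the 9 listed locus genes were too low to test. Dlk1, the imprinted ligand that names the locus, had 1, 8 and 3 counts in the WRE-edited libraries and 5, 4 and 0 in the Rosa26-edited ones. Dio3, the enzyme that inactivates thyroid hormone, had 1, 2 and 1 counts against 2, 1 and 0, and its antisense neighbour Dio3os had 2, 8 and 8 against 4, 5 and 3. A difference in these 3 genes was not detectable at this depth. Of the 6 tested members, 5 were negative, 4 lay wholly below the controls (4.05% of all tested genes did) and 1 wholly above (3.62% of all), and the median log2 fold change was -2.08. Without Rosa26-edited 1, the control with the highest value of all 6, that median was -1.46.

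On GRCm38.p6 the domain runs along chromosome 12 from Dlk1 (chr12:109452485-109463336) through Meg3 (chr12:109540996-109571729), Rtl1 (chr12:109564900-109604418), Rian (chr12:109603945-109661716) and Mirg (chr12:109734981-109749458) to Gm34667 (chr12:109992758-110023992) and Dio3 (chr12:110279230-110281097). Rtl1 shares bases with the end of Meg3 and the beginning of Rian. Whether the counting used strand is not stated in these sources, and reads from the shared bases cannot be told apart. Neighbours outside the domain did not share the low values. Of 16 tested genes that flank it on chromosome 12, 5 were negative (47.9% of all genes), and the median log2 fold change was 0.16. In that list 0 lay wholly below the controls (4.05% of all genes) and 0 wholly above (3.62% of all genes). With shares this small, a count of 0 among 16 genes is not a result about them. Yy1, a zinc finger transcription factor among these neighbours, was at 26.9, 47.7 and 30.7 CPM against 25.9, 22.5 and 33.7 CPM. Imprinted genes of other chromosomes were centred at 0.002 over 19 tested members, 9 of them negative. The window around the Meg3 start is shown because it is the promoter at the head of the maternal transcripts, with 250 bases before the start and 50 after it, from RefSeq on GRCm38.p6 (chr12:109540746-109541045, plus strand). Capitals mark the pentamer CCAAT.
Meg3: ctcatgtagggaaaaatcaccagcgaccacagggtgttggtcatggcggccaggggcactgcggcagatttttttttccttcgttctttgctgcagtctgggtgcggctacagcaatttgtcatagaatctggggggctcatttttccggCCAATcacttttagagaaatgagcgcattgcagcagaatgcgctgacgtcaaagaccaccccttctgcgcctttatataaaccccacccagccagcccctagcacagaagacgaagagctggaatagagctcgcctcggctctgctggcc
The CCAAT begins 100 bases before the start. The TCF words (CTTTG followed by AA, AT, TA or TT) were searched on both strands and were in 0 of the 4 locus genes with a window, against 14.5% of the 10260 tested genes with a window and 18.9% of all 27025. The edited site lies outside these windows and no sequence of it was used here.

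**Figure D1:**
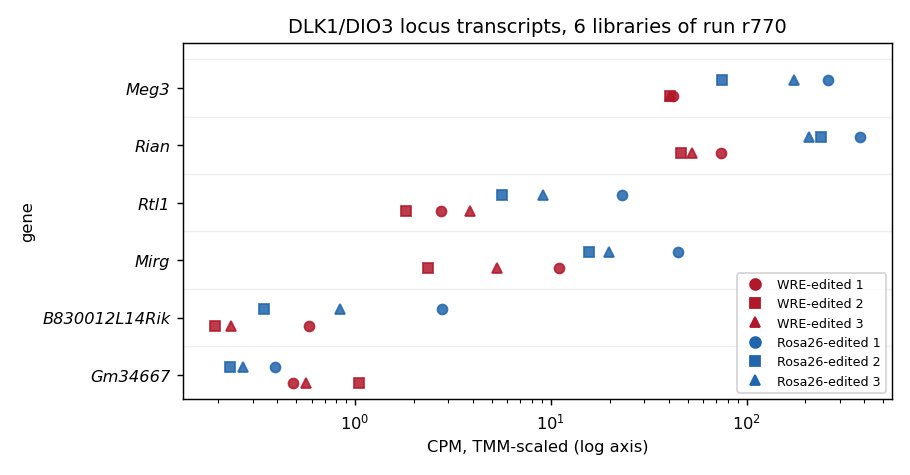
Levels of the 6 tested transcripts of the DLK1/DIO3 locus in each library of run r770, in CPM on a log axis, 1 row per gene, with red symbols for WRE-edited and blue for Rosa26-edited libraries and the symbol shape giving the replicate. Rian, Meg3, Rtl1 and Mirg show red wholly to the left of blue, B830012L14Rik overlaps, and Gm34667 shows red to the right at under 1.1 CPM.

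Outside the locus, the genes of smallest p with a mean of at least 1 CPM, leaving out predicted genes and pseudogenes, were a mixed set. Cyp7a1, which makes the first and limiting step from cholesterol to bile acids, was at 270.9, 225.8 and 259.4 CPM in the WRE-edited libraries and at 556.4, 449.1 and 377.1 CPM in the controls. All WRE-edited libraries were below all controls (log2 fold change -0.87 ± 0.19, DESeq2 adjusted p = 0.044). Slc22a28, a member of the organic anion transporter family, was at 2.48, 2.85 and 2.82 CPM against 7.16, 5.23 and 7.72 CPM (log2 fold change -1.30 ± 0.23, DESeq2 adjusted p = 0.0074). Trim30a, an interferon-inducible protein, was at 36.5, 32.0 and 35.7 CPM against 46.2, 63.1 and 74.2 CPM (log2 fold change -0.82 ± 0.19). Thrsp, from the lipogenesis list, a protein induced by thyroid hormone and carbohydrate, was at 58.6, 38.6 and 32.0 CPM against 106.9, 63.1 and 99.98 CPM (log2 fold change -1.06 ± 0.27). All 4 of these genes were separate between the groups, and their edgeR adjusted p-values were 0.803 for Slc22a28 and 0.998 for the rest.

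Among the higher genes, Atoh8, a transcription factor induced by BMP signalling and iron, stood at 2.31, 3.31 and 3.51 CPM against 1.37, 1.258 and 1.34 CPM. Its controls were almost equal, and every WRE-edited library was above them (log2 fold change 1.20 ± 0.28, edgeR adjusted p = 0.998). Mfsd2a, a transporter of lysophospholipids, was at 4.44, 5.58 and 1.03 CPM against 0.531, 1.17 and 0.336 CPM. WRE-edited 3 was below Rosa26-edited 2, so the groups of Mfsd2a overlapped (log2 fold change 2.42 ± 0.65, DESeq2 adjusted p = 0.044). Slc25a30, a mitochondrial carrier, was at 54.9, 97.9 and 56.0 CPM against 29.8, 44.6 and 36.2 CPM (log2 fold change 0.92 ± 0.26). Hspb1, a small heat shock protein, was at 11.6, 13.8 and 18.1 CPM against 9.40, 8.66 and 8.09 CPM (log2 fold change 0.73 ± 0.20). Gstp2, a glutathione transferase whose reads may be shared with its near-identical neighbour Gstp1, was at 21.6, 27.1 and 24.9 CPM against 13.6, 18.0 and 12.5 CPM (log2 fold change 0.74 ± 0.19). The macrophage elastase Mmp12, Ocel1, Fbxo31, Bcl3 and Rbpms had log2 fold changes between 0.70 (Ocel1) and 1.07 (Mmp12), each with all WRE-edited libraries above all controls.

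**Figure D2:**
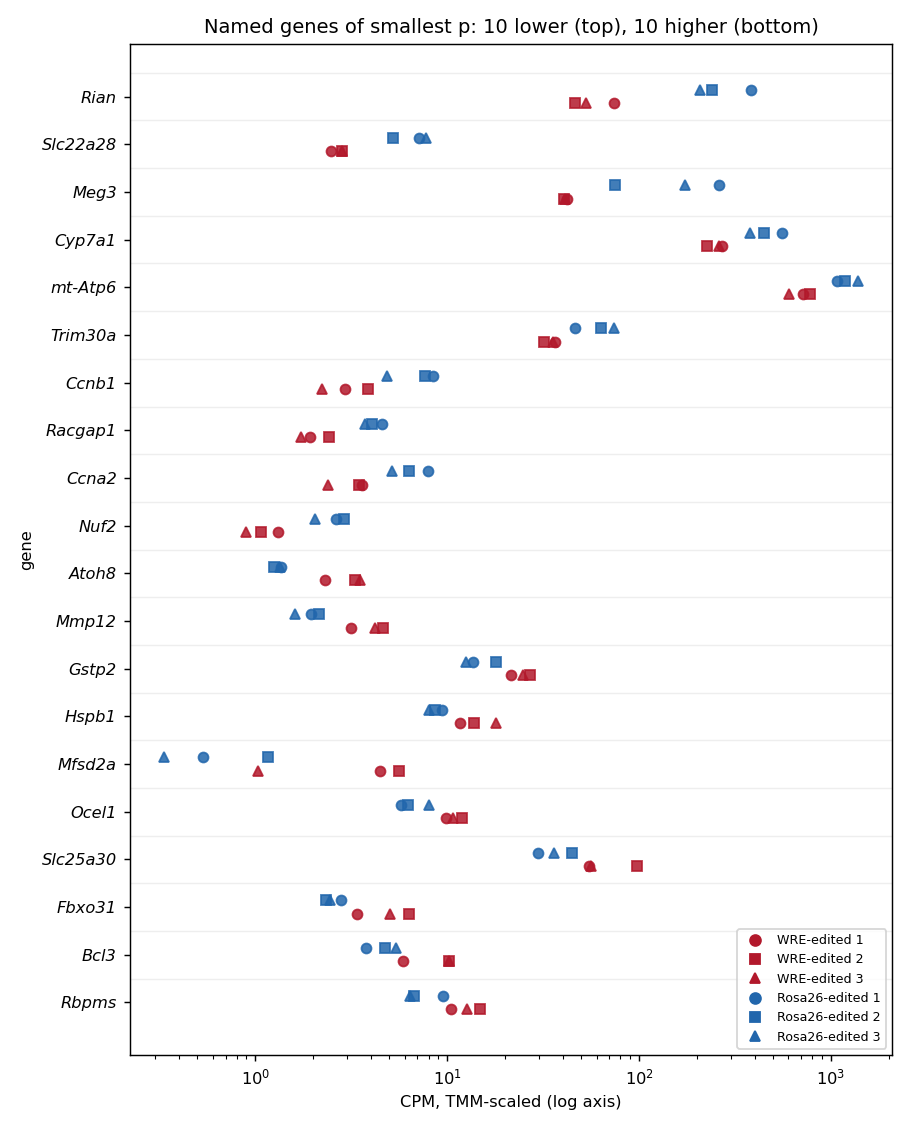
Levels of the 10 lower and the 10 higher genes of smallest p in run r770 among those with a mean of at least 1 CPM that are neither predicted genes nor pseudogenes, in CPM on a log axis, with 1 row per gene, colour for the group and symbol shape for the replicate. In 19 of the 20 rows the groups do not overlap, which the choice by small p favours, and in the Mfsd2a row WRE-edited 3 falls among the controls.

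The remaining DESeq2 calls, named after their values were seen, were small or poorly annotated transcripts and Oxtr. Gm24497, a small nuclear RNA gene (chr1:72244213-72244403), was at 13.5, 14.9 and 33.9 CPM against 105.0, 150.2 and 125.3 CPM (log2 fold change -2.61 ± 0.35, DESeq2 adjusted p = 2.07e-12). Run r595 had no such gap: Gm24497 was at 12.1 CPM in the WRE-edited library of run r595 and at 12.5 and 5.77 CPM in its controls, while the pair of WRE-edited libraries of run r711, which has no control, stood at 184.3 and 7.86 CPM. Gm28052 had 42, 19 and 28 counts in the WRE-edited libraries and 1, 0 and 0 in the controls. In run r595 Gm28052 was at 0.263 CPM in the WRE-edited library and at 2.24 and 0 CPM in the controls. Gm27000 was at 0.207, 0.911 and 0.530 CPM against 3.33, 1.54 and 3.66 CPM, and it was also lower in run r595 (difference -3.33). Zxda, listed by RefSeq as a transcribed pseudogene on chromosome X, was at 3.20, 3.34 and 2.72 CPM against 1.18, 0.743 and 1.21 CPM. Oxtr, the oxytocin receptor, was below the edgeR filter with 1, 1 and 1 counts against 93, 30 and 4, most of them in Rosa26-edited 1.

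Genes of mitosis were lower in the WRE-edited libraries as a group. This list, like the others, was chosen with earlier results of these data known, so its counts describe and do not test. Its members were measured in the same 6 libraries and are not separate replicates. All 26 listed and tested members had a negative log2 fold change, from -1.35 for Bub1 to -0.30 for Aurka, with a median of -0.76 (1.69-fold lower), against 47.9% negative and a median of 0.014 over all genes. At an unadjusted p under 0.05, 13 of the 26 were lower, where 1.71% of all genes were, and 18 of them lay wholly below the controls, where 4.05% of all genes did. None passed adjustment in the main edgeR fit or in DESeq2. With no filter on low counts, edgeR gave adjusted p-values of 0.0209 for Top2a and 0.0345 for Kif20a. Ccnb1, the cyclin that drives entry into mitosis, was at 2.93, 3.87 and 2.22 CPM against 8.39, 7.69 and 4.83 CPM (log2 fold change -1.21 ± 0.29). Ccna2, the cyclin of S phase and G2, was at 3.58, 3.45 and 2.39 CPM against 7.91, 6.32 and 5.17 CPM (log2 fold change -1.04 ± 0.25). Both are from the list of cyclins and cell cycle control genes, of which 11 of 17 were negative (median -0.27), 5 were lower at an unadjusted p under 0.05 (1.71% of all genes) and 7 lay wholly below the controls (4.05% of all genes). In that list 2 were lower without Rosa26-edited 1 (1.04% of all genes) and 3 without WRE-edited 3 (1.12% of all genes). Its median was -0.069 without WRE-edited 1. Racgap1, which organises the midzone of the dividing cell, was at 1.93, 2.43 and 1.72 CPM against 4.59, 4.06 and 3.72 CPM (log2 fold change -1.02 ± 0.25). In all 3 genes, each WRE-edited library was below each control.

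Nuf2 and Bub1, which act at the kinetochore, had log2 fold changes of -1.21 ± 0.31 and -1.35 ± 0.37. The motor protein Kif4 was level within each group, at 2.00, 2.02 and 1.99 CPM against 3.80, 4.09 and 3.32 CPM (log2 fold change -0.90 ± 0.23). Kif20a, a kinesin of cytokinesis, was at 5.65, 5.44 and 3.32 CPM against 12.3, 9.03 and 6.98 CPM. Top2a, the topoisomerase that untangles replicated chromosomes, was at 16.9, 17.0 and 10.5 CPM against 28.9, 31.3 and 19.6 CPM (log2 fold change -0.85 ± 0.24). Mki67, the proliferation marker, was at 29.8, 30.4 and 9.48 CPM against 39.0, 39.4 and 39.9 CPM. The controls of Mki67 were nearly equal, and the wide gap was in WRE-edited 3 alone (log2 fold change -0.76 ± 0.37). Among the other cell cycle control genes, Cdk1, the kinase partner of Ccnb1, had a log2 fold change of -0.61 ± 0.21, and Cdc25c, the phosphatase that activates it, had -1.73 ± 0.60 at under 0.9 CPM. Cdkn1a, the p21 inhibitor, lay on the other side at 21.1, 27.7 and 22.4 CPM against 14.6, 20.8 and 22.1 CPM, with overlapping groups.

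The mean log2 CPM of the 26 mitosis genes was 1.56, 1.67 and 0.78 in the WRE-edited libraries and 2.34, 2.27 and 1.88 in the Rosa26-edited ones. Without WRE-edited 3, the lowest library, all 26 genes were still negative with a median of -0.54, and without both WRE-edited 3 and Rosa26-edited 2 all 26 were negative with a median of -0.51. Without Rosa26-edited 1, 8 of the 26 were lower at an unadjusted p under 0.05 (1.04% of all genes). The levels also differed between runs: the WRE-edited libraries of run r711, which has no control, stood at 2.56 and 2.61, above every library of run r770. In run r595 the WRE-edited library was at 0.91 and its controls at 2.28 and 2.42, and all 26 genes were negative there too, where 46.4% of all genes were. That run rests on 1 WRE-edited library, WRE-edited 6. Its name shares a number with WRE-edited 4 of run r711, which stood at 2.56, and both may stand for the same mouse. Mitochondrial ribosomal RNA took 23.3%, 19.02% and 21.4% of the counts in the WRE-edited libraries and 28.1%, 28.0% and 19.2% in the controls, so the control with the lowest mitosis mean also had the lowest share among controls. An exact two-sided permutation test of that share gave p = 0.3, with 0.1 the smallest possible, and its part in the mitosis values was not tested. With scaling factors set without mitochondrial transcripts the mitosis median was -0.77.

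Promoters of mitotic genes often carry a CHR word and CCAAT boxes, the sites through which the DREAM complex, B-MYB with FOXM1, and NF-Y act. The words TTTGAA and TTTAAA (CHR; TTTGAA is part of the TCF word CTTTGAA) were on either strand of at least 1 window in 20 of 23 mitosis genes (87.0%), against 23.6% of tested genes and 30.6% of all genes with a window. CCAAT on either strand was in 18 of the 23 (78.3%), against 43.0% and 41.1%. Windows of Ccnb1 (chr13:100786437-100786736, minus strand) and Racgap1 (chr15:99651607-99651906, minus strand) are shown for the 2 cell division genes of smallest p, with capitals for a CHR word, for CCAAT and for ATTGG, its reverse complement.
Ccnb1: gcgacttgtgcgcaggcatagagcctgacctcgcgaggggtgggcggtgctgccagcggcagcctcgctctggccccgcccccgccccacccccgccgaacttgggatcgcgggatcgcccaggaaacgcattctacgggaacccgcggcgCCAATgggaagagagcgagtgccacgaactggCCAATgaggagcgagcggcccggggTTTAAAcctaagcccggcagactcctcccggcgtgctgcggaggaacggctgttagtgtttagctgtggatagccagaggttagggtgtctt
Racgap1: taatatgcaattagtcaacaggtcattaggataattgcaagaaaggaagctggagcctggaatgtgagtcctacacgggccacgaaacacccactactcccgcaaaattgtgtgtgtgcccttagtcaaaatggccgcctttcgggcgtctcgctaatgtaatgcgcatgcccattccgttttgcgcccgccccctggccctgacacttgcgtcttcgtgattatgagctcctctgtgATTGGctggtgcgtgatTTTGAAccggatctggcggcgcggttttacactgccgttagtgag
In Ccnb1 the CCAAT boxes begin 99 and 67 bases before the start and TTTAAA begins 42 before it. In Racgap1, ATTGG begins 12 bases before the start and TTTGAA 5 bases after its first base. These matches describe the windows and do not show that a factor was bound.

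Genes of DNA replication differed less than those of mitosis. Of 24 tested members 21 were negative, 2 were lower at an unadjusted p under 0.05 (1.71% of all genes) and 4 lay wholly below the controls (4.05% of all genes), with a median log2 fold change of -0.24. Mcm5, a subunit of the replicative helicase, was at 5.13, 5.55 and 5.93 CPM against 8.59, 8.89 and 8.49 CPM (log2 fold change -0.64 ± 0.18), tight within both groups. Gins2, a partner of that helicase, was at 2.55, 1.99 and 2.79 CPM against 3.50, 2.92 and 4.80 CPM. Without WRE-edited 3 and Rosa26-edited 2 the count was 15 of 24 negative and the median -0.095.

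**Figure D3:**
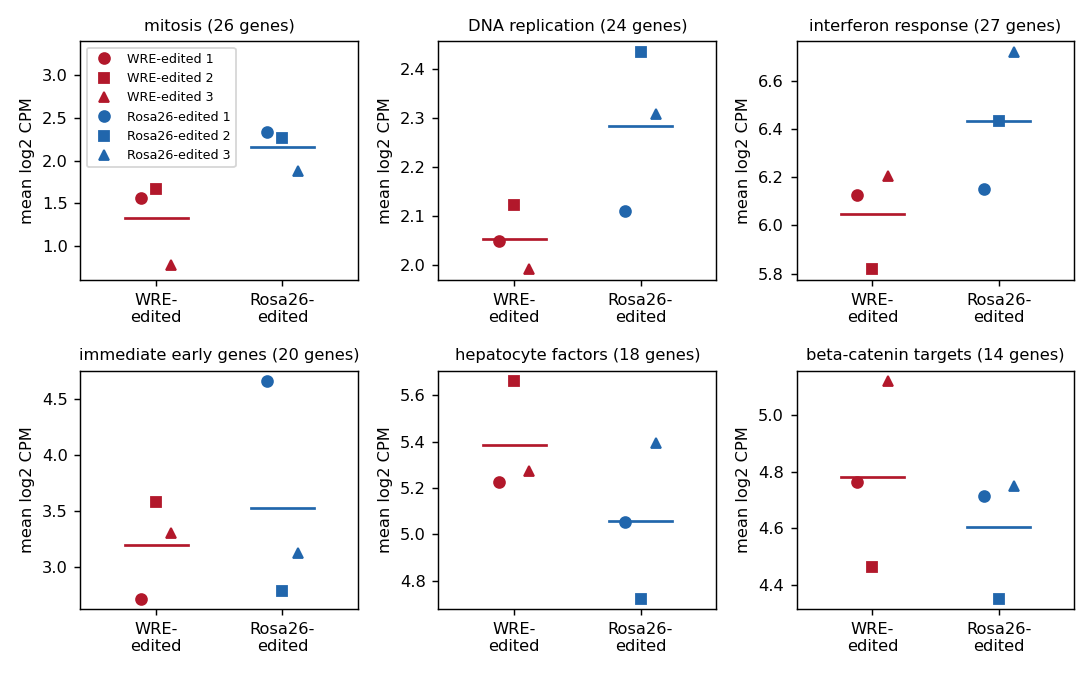
Mean log2 CPM over the tested members of 6 gene lists in each library of run r770, with 1 panel per list, the symbol shape giving the replicate and a bar at the mean of each group. The mitosis panel has all 3 WRE-edited libraries below all 3 controls, the DNA replication panel overlaps through WRE-edited 2 and Rosa26-edited 1, the immediate early panel has Rosa26-edited 1 alone at the top, and the β-catenin panel has overlapping groups.

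Interferon-induced genes were lower in most members but less evenly. Of 27 tested members 23 were negative, with a median log2 fold change of -0.36, 8 were lower at an unadjusted p under 0.05 (1.71% of all genes) and 3 lay wholly below the controls (4.05% of all genes). Usp18, the protease that removes ISG15 and dampens the interferon receptor, was at 365.0, 302.5 and 392.7 CPM against 539.4, 531.5 and 531.3 CPM. The controls of Usp18 were nearly equal, and all WRE-edited libraries were below them (log2 fold change -0.60 ± 0.16). Ifit2, an antiviral RNA-binding protein, was at 44.5, 27.0 and 43.6 CPM against 56.3, 99.0 and 72.6 CPM (log2 fold change -0.99 ± 0.26). Mx1, an interferon-induced gene that RefSeq lists as a transcribed pseudogene in this reference, was at 15.9, 12.1 and 15.4 CPM against 14.9, 23.0 and 36.4 CPM, and Gbp7, a guanylate-binding protein, at 87.6, 67.5 and 52.2 CPM against 94.4, 87.2 and 119.3 CPM. Both overlapped between groups, Mx1 through Rosa26-edited 1 and Gbp7 through WRE-edited 1 and Rosa26-edited 2. In the list mean, Rosa26-edited 3 was highest at 6.72 and WRE-edited 2 lowest at 5.82. Without Rosa26-edited 3, 2 members were lower at an unadjusted p under 0.05 (3.93% of all genes), with a median of -0.22. Leaving out WRE-edited 2 also gave 2 (1.51% of all genes), with a median of -0.25. Without Rosa26-edited 2 the count was 4 (1.55% of all genes). Without Rosa26-edited 1 the count was 11 (1.04% of all genes), with 26 of 27 negative and a median of -0.49. In run r595 the list was centred at 0.047, with 13 of 27 members negative.

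The interferon-stimulated response element, searched on both strands as a pair of GAAA words with 2 free bases between them, was in 12 of 22 interferon genes with a window (54.5%), against 3.98% of tested genes and 3.99% of all genes. The window of Gbp7 (chr3:142530086-142530385, plus strand) is shown as a member with a match, in capitals, which begins 53 bases before the start and reads on the minus strand.
Gbp7: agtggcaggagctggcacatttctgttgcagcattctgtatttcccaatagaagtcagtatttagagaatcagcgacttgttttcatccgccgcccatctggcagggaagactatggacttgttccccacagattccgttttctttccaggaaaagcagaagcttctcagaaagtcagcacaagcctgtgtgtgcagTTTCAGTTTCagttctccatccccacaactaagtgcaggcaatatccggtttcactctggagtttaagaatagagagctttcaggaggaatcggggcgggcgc
Ifit2, the interferon gene of smallest p, had no match in its windows.

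Transcription factors of the hepatocyte were on the other side. Of 18 tested members 17 were positive, with a median log2 fold change of 0.33, 3 were higher at an unadjusted p under 0.05 (1.36% of all genes) and 2 lay wholly above the controls (3.62% of all genes). Foxa2, a pioneer factor that opens liver enhancers, was at 16.8, 19.7 and 22.3 CPM against 8.14, 14.4 and 13.8 CPM (log2 fold change 0.70 ± 0.23). Foxa3, its relative, was at 37.7, 36.9 and 38.6 CPM against 26.4, 30.6 and 27.7 CPM (log2 fold change 0.42 ± 0.15). Cebpb, a factor of the acute phase and of regeneration, was at 39.0, 70.7 and 52.6 CPM against 38.0, 27.6 and 40.6 CPM, and Hnf4a, the nuclear receptor that maintains hepatocyte identity, at 329.1, 417.6 and 355.6 CPM against 270.2, 261.7 and 331.0 CPM. The groups of both overlapped by a small margin. Rosa26-edited 2 was the lowest library of this list, and without it 6 of 18 members were negative and the median was 0.15. The count of 3 members higher was 9 without Rosa26-edited 3, where 3.83% of all genes were higher by that measure. It was 2 without WRE-edited 2, Rosa26-edited 1 or Rosa26-edited 2 (0.687%, 1.09% and 1.01% of all genes). Without WRE-edited 3 it was 1 (1.22% of all genes). The secreted proteins of the liver were closer to the middle, with 18 of 25 positive and a median of 0.095.

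Genes controlled by β-catenin had a list median near 0 in this run. Of 14 tested targets 6 were negative, 1 was higher at an unadjusted p under 0.05 (1.36% of all genes) and 0 lower. The list median was 0.064, or -0.076 without WRE-edited 3. It was 0.225 without WRE-edited 2, with 2 of 14 negative, and 0.22 without Rosa26-edited 1. Tbx3, a T-box factor induced by β-catenin in liver, was the higher gene, at 20.7, 35.6 and 38.7 CPM against 17.5, 10.2 and 21.8 CPM (log2 fold change 0.94 ± 0.31). With no filter on low counts, edgeR gave Tbx3 an adjusted p of 0.00313. Sp5, a transcription factor of Wnt feedback, was at 4.68, 4.12 and 9.81 CPM against 3.55, 4.12 and 3.62 CPM, with its excess in WRE-edited 3. Axin2, the feedback inhibitor of the pathway, was at 41.2, 49.1 and 105.8 CPM against 40.1, 38.5 and 61.1 CPM, and Lgr5, the R-spondin receptor, at 22.7, 22.01 and 26.5 CPM against 33.9, 16.9 and 25.6 CPM. Glul, the glutamine synthetase of cells next to the central vein, was at 6134, 6587 and 9171 CPM against 6913, 7144 and 6413 CPM. Cyp2e1, a pericentral cytochrome, was at 3489, 3416 and 4843 CPM against 3515, 3983 and 3634 CPM. Axin2, Glul and Cyp2e1 were all highest in WRE-edited 3, and without that library their log2 fold changes were -0.043, -0.10 and -0.11 in place of 0.49, 0.097 and 0.078.

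The lists of metabolic zones were centred near 0: the pericentral list had 5 of 16 members negative with a median of 0.026, and the periportal list 8 of 17 with a median of 0.023. Both turned on single libraries: without WRE-edited 3 the pericentral list had 13 of 16 negative (median -0.12) and the periportal list 5 of 17 (median 0.19), and without WRE-edited 2 the periportal list had 13 of 17 negative (median -0.35). Ass1, a urea cycle enzyme of periportal cells, was at 457.6, 826.0 and 637.3 CPM against 543.3, 364.5 and 465.7 CPM. In run r595, by contrast, the medians were 0.55 for the pericentral, -0.48 for the periportal and 0.46 for the β-catenin list, from 1 WRE-edited library against 2 controls. The APC complex and TCF factors had 4 of 12 members negative and a median of 0.11. Apc itself was at 41.1, 58.0 and 25.1 CPM against 39.6, 30.2 and 42.7 CPM. All these mice carry the Apc deletion, and a count over the whole gene does not separate deleted exons from retained ones, so the Apc level checks neither the deletion nor the groups.

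Among genes of lipid metabolism, Cyp4a14, the fatty acid hydroxylase induced by PPARα, was at 10.7, 117.1 and 142.0 CPM against 37.1, 11.3 and 7.31 CPM. WRE-edited 1 was below Rosa26-edited 1 and 2, so the groups overlapped and the standard error was large (log2 fold change 2.28 ± 1.08). Over the 28 tested genes of fatty acid oxidation and ketogenesis, 4 were negative and the median was 0.19. At an unadjusted p under 0.05, 1 was higher (1.36% of all genes). Without WRE-edited 3, 12 of the 28 were negative and the median was 0.024. The higher gene was Creb3l3, a liver factor of the fasting response, at 96.9, 112.4 and 144.0 CPM against 89.0, 87.8 and 84.2 CPM (log2 fold change 0.44 ± 0.18). In cholesterol synthesis 18 of 22 members were negative, 3 were lower at an unadjusted p under 0.05 (1.71% of all genes), and the median was -0.17. Without WRE-edited 2, or without Rosa26-edited 1, edgeR gave 0 such genes, where 1.51% and 1.04% of all genes were lower. Without WRE-edited 1 it gave 6, where 3% of all genes were lower. Insig1, which retains the sterol sensor in the endoplasmic reticulum, was at 203.5, 132.8 and 168.7 CPM against 321.5, 200.8 and 239.0 CPM, overlapping through WRE-edited 1 and Rosa26-edited 2. Msmo1, a sterol oxidase, had a log2 fold change of -0.57 ± 0.24. In run r595 this list was centred at 0.17 with 8 of 22 members negative.

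The medians of the other metabolic lists were near 0, and in each of them leaving out some single library turned the sign of the median. Lipogenesis had 9 of 17 members negative with a median of -0.008, and Thrsp was its lowest member; without WRE-edited 2 it had 13 of 17 negative, and without Rosa26-edited 3, 4 of 18. Bile acid synthesis and transport had 10 of 19 negative with a median of -0.002, with Cyp7a1 the lowest. Genes of drug metabolism had 9 of 21 negative (median 0.053), NRF2 targets 4 of 17 (median 0.058), and gluconeogenesis and glycolysis 10 of 18 (median -0.022). Without WRE-edited 1, 10 of the 17 NRF2 targets were negative. Osgin1, an oxidative stress gene, was the NRF2 target that was higher at an unadjusted p under 0.05 (log2 fold change 0.51 ± 0.22). The thyroid hormone list had 8 of 13 negative (median -0.040), with Thrsp lower and Bcl3 higher at an unadjusted p under 0.05.

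Some signalling and stress lists, the immediate early and acute phase genes among them, were shaped by single libraries. The immediate early genes, which respond within minutes to stress and to cell isolation, had 15 of 20 members negative and a median of -0.60, yet 0 had an unadjusted p under 0.05 in either direction. Atf3, a stress-induced factor, was at 17.6, 7.51 and 14.8 CPM against 140.4, 13.2 and 6.11 CPM. Fos was at 4.10, 18.0 and 13.8 CPM against 61.1, 10.2 and 16.2 CPM, Nr4a1 at 12.9, 8.67 and 10.3 CPM against 42.7, 9.72 and 13.7 CPM, and Btg2 at 26.4, 27.8 and 24.0 CPM against 180.0, 27.6 and 31.4 CPM. All 4 stood out in Rosa26-edited 1 alone, and without that library the list's median was 0.27. Rosa26-edited 1 was also the control with the highest values of Rian, Meg3, Rtl1 and Mirg; whether this is connected was not tested, and without it Rian had a log2 fold change of -1.96.

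Targets of p53 had 11 of 18 members negative and a median of -0.044. Plk2, a polo-like kinase, was lower at an unadjusted p under 0.05 (log2 fold change -0.51 ± 0.21). Acute phase genes had 5 of 21 negative and a median of 0.20, and 2 were higher at an unadjusted p under 0.05 (1.36% of all genes). These were Mt2, a metallothionein, at 4.20, 22.01 and 8.16 CPM against 6.01, 3.83 and 2.85 CPM, and Lbp, which binds bacterial lipopolysaccharide, at 33.9, 81.1 and 36.3 CPM against 33.3, 26.9 and 32.0 CPM. Both were highest in WRE-edited 2, and without that library 17 of 22 acute phase genes were negative with a median of -0.14. The amino acid stress and unfolded protein list had 4 of 19 negative (median 0.16), and its highest member, Asns, the asparagine synthetase, was at 1.52, 4.75 and 8.49 CPM against 2.13, 2.00 and 1.98 CPM. In the BMP and iron list (4 of 14 negative, median 0.18), Atoh8 and Smad7, an inhibitor of SMAD signalling, lay wholly above the controls. Tfrc, the transferrin receptor, lay wholly below them at 56.7, 36.5 and 22.1 CPM against 88.2, 62.2 and 58.4 CPM. Of 19 oncofetal and biliary genes 8 could be tested, and 5 of those were negative. Sox9, a biliary and progenitor factor, was at 1.34, 1.63 and 1.33 CPM against 0.783, 0.515 and 0.772 CPM (log2 fold change 1.05 ± 0.36), while the biliary keratins Krt7 and Krt19 and the marker Epcam were below the filter. Krt23, from the cholangiocyte markers, lay the other way at 1.03, 0.608 and 0.895 CPM against 2.57, 1.52 and 1.11 CPM (log2 fold change -1.04 ± 0.415). Of the 4 tested cholangiocyte markers, Sox9 and Krt23 among them, 2 were negative.

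All 15 tested transcripts of the mitochondrial genome were negative, with a median of -0.33, 3 lower at an unadjusted p under 0.05 (1.71% of all genes) and 5 wholly below the controls (4.05% of all genes). Without Rosa26-edited 3 the count of 3 was 8, where 3.93% of all genes were lower by that measure, and without Rosa26-edited 1, 14 of the 15 were negative with a median of -0.21. mt-Atp6, a subunit of ATP synthase, was at 715.4, 774.4 and 603.6 CPM against 1079, 1178 and 1379 CPM, without overlap (log2 fold change -0.80 ± 0.18, DESeq2 adjusted p = 0.0484). mt-Atp8, whose reading frame overlaps mt-Atp6, was at 94.4, 86.6 and 93.0 CPM against 292.1, 164.1 and 112.7 CPM. mt-Nd4, a subunit of complex I, was at 827.1, 850.9 and 706.6 CPM against 1129, 912.0 and 965.8 CPM. The share of all mitochondrial transcripts was 25.4%, 20.9% and 23.4% against 31.1%, 30.6% and 21.3%, so Rosa26-edited 3 was as low as the WRE-edited libraries in the total but not in mt-Atp6. Nuclear copies of mitochondrial sequence can share these reads, and how they were assigned is not stated.

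**Figure D4:**
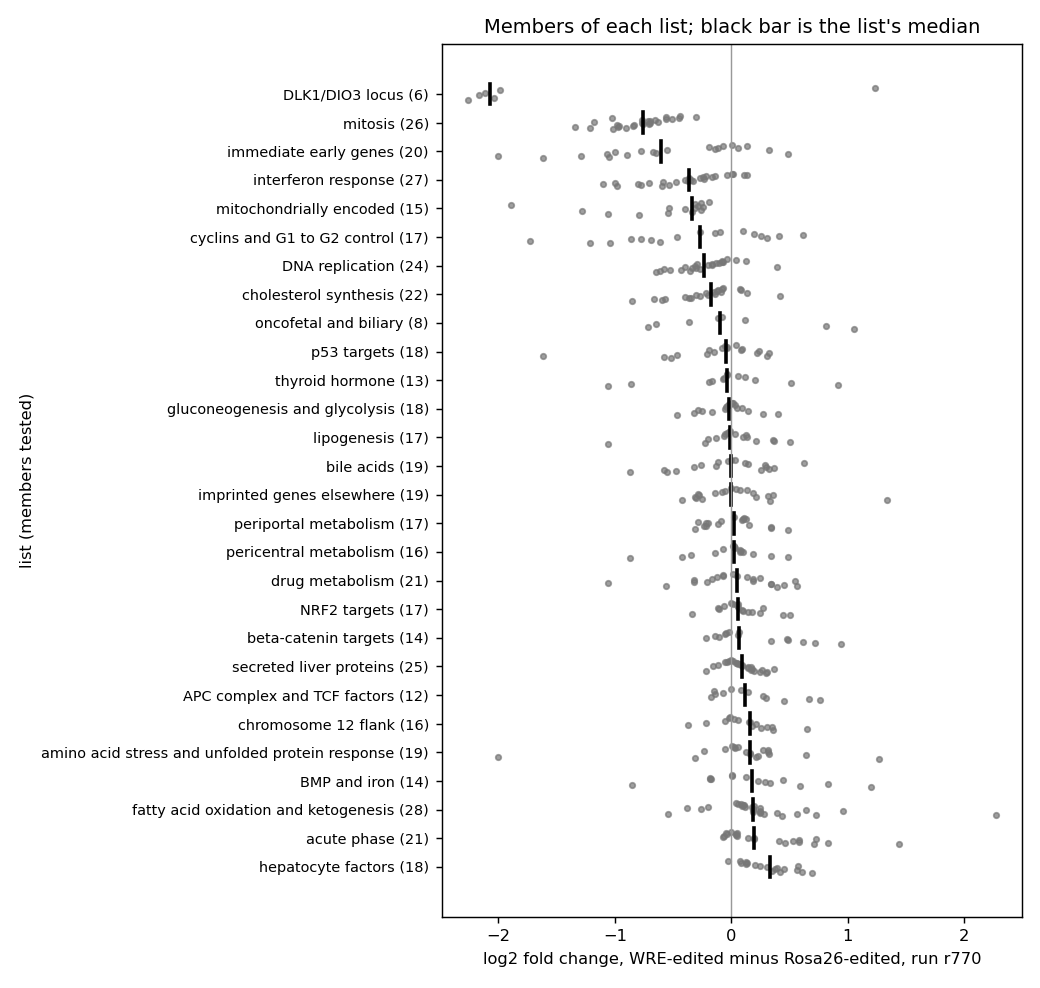
Log2 fold changes of the tested members of each gene list in run r770, WRE-edited minus Rosa26-edited, with 1 dot per gene and a black bar at the list's median. All dots of the mitosis and mitochondrially encoded lists lie left of 0, all but 1 of the hepatocyte factors lie right of it, and 5 of the 6 locus transcripts lie near -2.

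Markers of other liver cells were measured in the same libraries. Those of hepatocytes summed to between 54720 and 65640 CPM in all 6 libraries. Of 18 Kupffer cell and macrophage markers 17 were negative, and their sums were 630.0, 587.9 and 508.9 CPM against 641.7, 1044 and 425.1 CPM. Of 16 endothelial markers 14 were negative (sums of 212.8 to 319.7 against 242.3 to 348.7 CPM), and of 14 stellate cell and fibroblast markers 11 were (67.1 to 132.3 against 95.4 to 133.0 CPM). The neutrophil sums were 6.78 to 7.19 against 5.10 to 22.8 CPM, the erythroid sums 7.88 to 10.9 against 7.36 to 30.3 CPM, the lymphocyte sums 20.6 to 28.6 against 20.1 to 50.1 CPM, the cholangiocyte sums 10.1 to 16.4 against 12.7 to 26.7 CPM, and the platelet sums 1.24 to 1.79 against 1.78 to 2.12 CPM. Of 5 tested erythroid markers 4 were negative (median -1.74), and 3 were lower at an unadjusted p under 0.05 (1.71% of all genes). These were the globins Hba-a2, Hba-a1 and Hbb-bs, each highest in Rosa26-edited 2. Alas2 lay the other way (log2 fold change 0.55). The defining markers Ly6g and Mpo of neutrophils and Cd3e of T cells were below the filter on low counts. Every range overlapped between the groups, and exact two-sided permutation tests gave p between 0.2 and 1, where 0.1 is the smallest possible. Rosa26-edited 2 had the highest macrophage, neutrophil, erythroid, lymphocyte and cholangiocyte sums, while Rosa26-edited 3 had the lowest macrophage sum of all 6. The part of these cells in the lower interferon and mitosis values was not tested. With Rosa26-edited 2 left out, the interferon median was -0.39 and the mitosis median -0.74, against -0.36 and -0.76 with it.

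The effect could be set beside that of run r595, the other run with both groups, which shares no library with run r770. The runs differed in RNA composition: mitochondrial ribosomal RNA took 2.287% to 2.995% of counts in run r595 and 19.02% to 28.07% in run r770. The part of this in the comparisons between runs was not tested. Values of run r770 are edgeR log2 fold changes. Those of run r595 are differences of mean log2 CPM with a prior count of 2, from all 11 RNA-seq libraries scaled together. Rian differed by -2.26 in run r770 and by -2.27 in run r595, Meg3 by -2.04 and -2.35, and Gm34667 by 1.23 and 1.51. Mitosis genes had medians of -0.76 and -1.35, hepatocyte factors 0.33 and 0.38, and fatty acid oxidation genes 0.19 and 0.72. The immediate early genes had medians of -0.60 and 0.23, and the acute phase genes 0.20 and -0.61. Cyp7a1 differed by -0.87 and 0.052, and Slc22a28 by -1.30 and 0.24. In edgeR's test of the difference between the runs, 0 of 17231 genes passed adjustment and 1347 had an unadjusted p under 0.05 (7.82%), so no gene was shown to differ between the runs. No other tool was run for that test. Run r595 has 1 WRE-edited library, so its own values have no test.

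**Figure D5:**
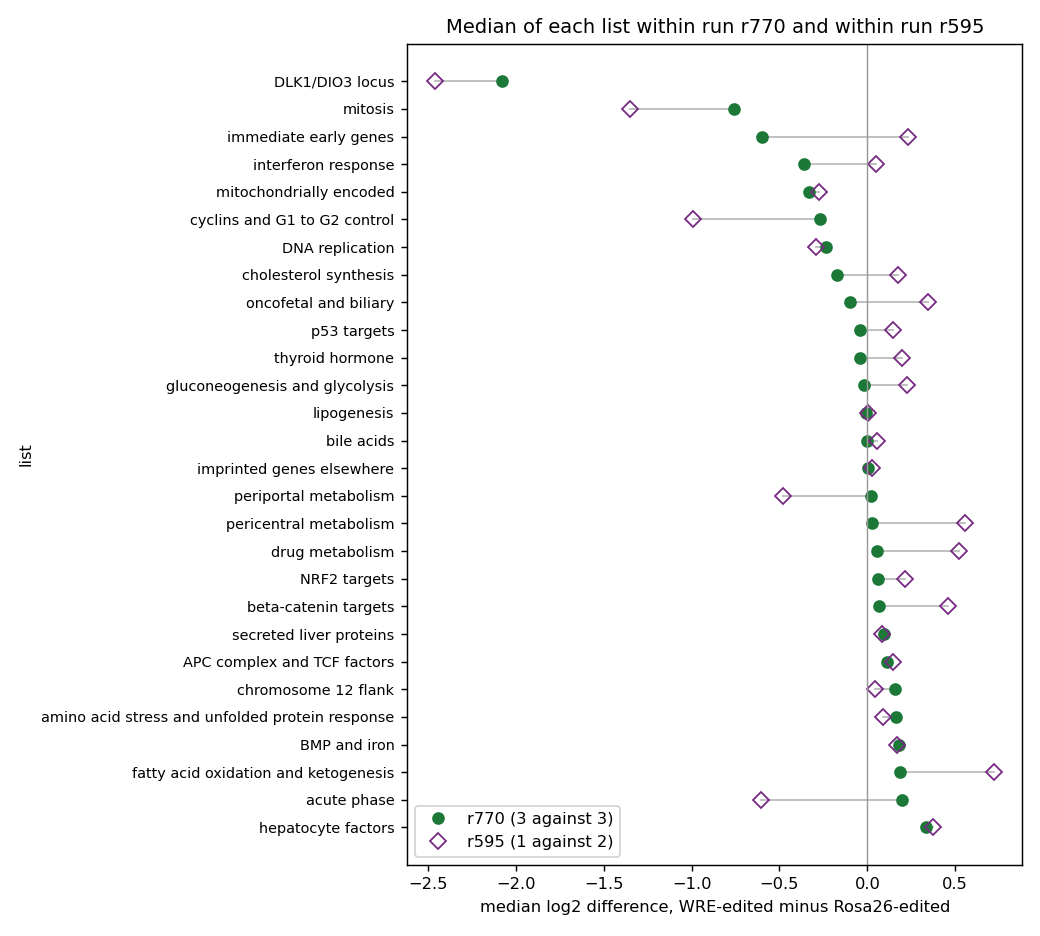
Median log2 difference of each gene list within run r770 (filled circles, 3 WRE-edited against 3 Rosa26-edited libraries) and within run r595 (open diamonds, 1 against 2), joined by a line. Circles are from edgeR log2 fold changes and diamonds from differences of mean log2 CPM. The locus and mitosis lists are the lowest in both runs, at -2.08 and -2.46 for the locus and -0.76 and -1.35 for mitosis, while the acute phase and immediate early lists lie on opposite sides of 0.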

How the data were processed

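The authors deposited 1 table of expected counts for each RNA-seq library, with Ensembl genes as rows. The submitters' processing notes name STAR 2.7.6a, RSEM 1.3.1 and the genome GRCm38. The same deposited tables give TPM, used here for levels per length, and other values, the effective gene lengths, used as offsets in an alternative. DESeq2 1.26.0 and R 3.6.3 are named in those notes too, and the normalized matrix they refer to was not used. Strand setting and annotation version: not given in the sources used here.

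Each library's run was read from the library names in the labels, and it matched the deposited design table for all 11 RNA-seq libraries. Expected counts were rounded, and 55450 of 55536 gene identifiers had a name. The 6 libraries of run r770 were fitted alone in R 4.3.3 with edgeR 4.0.16 (filterByExpr by group with a minimum count of 10 and total of 15, TMM factors, robust quasi-likelihood test, two-sided, 4 residual degrees of freedom). The Benjamini-Hochberg adjustment ran over all genes tested, with a threshold of 0.05. DESeq2 1.42.0 was an alternative. List means used log2 CPM with a prior count of 2. The method was tested on simulated data with known changes. Pairs of replicates differed far beyond counting noise (chi-square per degree of freedom 50.5 to 113.7).

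Members and gene lists were chosen with earlier results of these data known. The genes named are the locus genes, the 10 of smallest p in each direction with a mean of at least 1 CPM that are neither predicted genes nor pseudogenes, up to 4 of each list by smallest p, and a fixed set with Apc, Glul, Axin2, Lgr5 and Cyp2e1, and not all of them are printed. The DESeq2 calls outside this rule were chosen after their values were seen. Promoter windows and gene coordinates came from RefSeq tables of GRCm38.p6, and not every gene has a window. The figures were drawn with matplotlib 3.10.9. The miRNA libraries were not analysed here.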

Additional observations from a re-analysis of the deposited data

How the results depend on the processing

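Direction held in every alternative for Rian, for the locus median and, where enough members were tested, for the mitosis median; the counts of calls did not hold. With no filter on low counts edgeR called 15 genes higher and 38 lower, with 1236 at an unadjusted p under 0.05 and Rian at -2.26 (adjusted p = 2.74e-24). DESeq2 called 3 higher and 9 lower, with Rian at -2.27. With at least 10 CPM in 3 libraries, 170 genes had an unadjusted p under 0.05, among fewer genes tested. With all 11 RNA-seq libraries and the run as a term, 1 gene was lower, 1453 had an unadjusted p under 0.05 and Rian, that gene, was at -2.30 (adjusted p = 0.0188). That fit counts WRE-edited 4 and WRE-edited 6 as separate, although their library names share a number and may stand for the same mouse. Leaving out each library in turn gave 0 to 1 genes lower: Gm24497 without WRE-edited 3 and Meg3 without Rosa26-edited 2 (-2.39, adjusted p = 0.00484). It gave 318 to 1166 genes at an unadjusted p under 0.05, of which 773 came without WRE-edited 1 and 1166 without Rosa26-edited 3. Rian then ranged from -2.49 to -1.96 (adjusted p 0.0527 to 1) and the locus median from -2.39 to -1.46. Leaving out both WRE-edited 3 and Rosa26-edited 2, chosen after seeing the data, gave 1 lower gene, Gm24497. Where these counts moved, the cause was not tested.

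Replicate numbers did not pair the libraries: same-numbered libraries deviated with correlations of 0.07, -0.26 and -0.10. Differently numbered libraries had correlations from -0.112 to 0.222. The highest were WRE-edited 2 with Rosa26-edited 3 (0.222) and WRE-edited 3 with Rosa26-edited 2 (0.182), and a pairing other than by replicate number was not tested. With the replicate block, edgeR called 0 genes higher and 0 lower, 389 genes had an unadjusted p under 0.05, Rian was at -2.24 (adjusted p = 0.0607) and the locus median was -1.92.

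Signs turned for 6 named genes. With each library left out in turn, Axin2 ranged from -0.043 to 0.723, Glul from -0.104 to 0.194 and Cyp2e1 from -0.106 to 0.157, all 3 lowest without WRE-edited 3. Lgr5 ranged from -0.326 to 0.16 and Atf3 from -2.535 to 0.453, both highest without Rosa26-edited 1, and Apc from -0.189 without WRE-edited 2 to 0.4. Without WRE-edited 3 and Rosa26-edited 2, Axin2, Glul and Cyp2e1 were at -0.161, -0.067 and -0.05. Lgr5 was at 0.078 with effective lengths as offsets, and Apc at -0.132 with all 11 libraries. Genes under 1 CPM, among them B830012L14Rik, Gm34667 and Cdc25c, rest on few counts, and a difference in Dlk1 or Dio3 could not be seen at this depth.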
